A study of Mus musculus with 13 samples.

Results

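The 10 genes described here, Hspa5, Xbp1, Atf4, Atf5, Ddit3, Herpud1, Trib3, Chac1, Asns and Fgf21, belong to the unfolded protein response and the integrated stress response. They were chosen by name, as a fixed list of pathway genes, from 36109 genes with at least 1 transcript in the expression tables. RNA was measured in 13 libraries of mice kept in room air, either with a deletion of Hmox2 (Hmox2-/-) or wild type littermates (Hmox2+/+). Hmox2 encodes heme oxygenase 2, which degrades heme and releases carbon monoxide, and mice without it are studied as a model of sleep apnea. Aortic endothelial cells (ECs) were represented by 3 Hmox2+/+ libraries (EC WT) and 3 Hmox2-/- libraries (EC KO), and whole frozen hearts by 4 Hmox2+/+ libraries (heart WT) and 3 Hmox2-/- libraries (heart KO). The deletion was carried by every cell of the animal, not by ECs or heart cells alone. The study describes the mice used for sequencing as young, and neither an exact age nor a sex was given in the labels. The series design speaks of matched EC and heart samples, but no label ties an EC library to a heart library, and the tests below treat the libraries as independent.

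Proteins that enter the endoplasmic reticulum (ER) are folded there by chaperones, and unfolded proteins in its lumen activate the sensors IRE1, PERK and ATF6. IRE1 removes a short stretch from Xbp1 mRNA so that an active transcription factor is made, ATF6 is cut to release another, and PERK phosphorylates the translation factor eIF2. The same phosphorylation is made by the kinases HRI, PKR and GCN2 in response to heme shortage or mitochondrial stress, double-stranded RNA and lack of amino acids, and it favours translation of Atf4, whose targets include Ddit3, Trib3, Chac1, Asns and Fgf21. ECs and cardiomyocytes both rely on this system when secretion, amino acid supply or mitochondrial function is disturbed.

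The first sequences shown are those that the pathway's transcription factors are known to bind. The 250 bases before and 50 bases after the transcription start were taken from RefSeq (GRCm38.p6), which held a promoter for all 10 genes, and both strands were searched. The ER stress element, ERSE (CCAAT, any 9 bases, then CCACG), was present in 0.119% of all 32851 promoters. Among the 10 genes it was found in Hspa5 alone, shown 5′ to 3′ on the gene's strand with the element in capitals.
Hspa5 (chr2:34772020-34772048, + strand, element 65 to 47 bases before the start): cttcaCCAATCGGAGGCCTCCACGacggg

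The CARE motif (TGATGNAAN), a C/EBP-ATF composite element bound by ATF4 with a C/EBP partner, was present in 3.95% of all promoters and in 5 of the 10 genes. In capitals are the CARE letters, which read on the opposite strand in every gene but Asns. The shorter AARE form (TTGCATCA, in 0.895% of all promoters) lay within the CARE match of Herpud1, Chac1 and Fgf21 and in no other gene of the list. All 5 windows are from GRCm38.p6. The Asns motif was 23 to 15 bases before the start and the Trib3 motif was 14 to 22 bases after it, within the transcribed sequence.
Asns (chr6:7693214-7693242, - strand): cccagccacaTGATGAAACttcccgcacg
Chac1 (chr2:119351038-119351066, + strand): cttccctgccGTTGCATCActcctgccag
Trib3 (chr2:152344029-152344057, - strand): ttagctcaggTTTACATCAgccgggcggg
Fgf21 (chr7:45615612-45615640, - strand): agacccccccATTGCATCAtccgtccagg
Herpud1 (chr8:94386306-94386334, + strand): accacggcggGTTGCATCAgcccgcaccc

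The UPRE motif (TGACGTGG), a binding sequence of XBP1 and ATF6, was present in 0.676% of all promoters and in none of the 10. These matches describe letters in a fixed window and were not tested as binding sites. The genes without a match may carry the elements elsewhere.

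The stretch that IRE1 removes from Xbp1 mRNA is shown because the active and inactive forms of Xbp1 differ only by these 26 bases. It lies in coding exon 4 of Xbp1-201 (chr11:5474278-5474303, + strand, GRCm39) and is printed in capitals as the GENCODE annotation places it. The same spliced mRNA results from a placement up to 6 bases further along, because the letters repeat.
Xbp1 (chr11:5474256-5474325): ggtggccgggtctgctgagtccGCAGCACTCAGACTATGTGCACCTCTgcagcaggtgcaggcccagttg

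The annotated transcript without this stretch, Xbp1-205, was not among the 4 Xbp1 transcripts in the expression tables, and Xbp1-201, which holds it, took 94.6% to 99.2% of the gene's counts. The spliced share of Xbp1, the direct readout of IRE1, was therefore not measured here, and the Xbp1 values below are the sum of both forms.

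Libraries held 26067147 to 31619776 estimated counts, except heart WT 1 with 7268626. Hmox2 transcripts were reduced in both tissues, with a log2 fold change of -2.34 in ECs and -2.30 in heart tissue. The reduction was smaller in TPM, from 51.3 to 61.6 TPM in EC WT to 19.0 to 32.05 TPM in EC KO and from 25.9 to 34.4 TPM in heart WT to 15.9 to 18.5 TPM in heart KO. Hmox2 transcripts share 73.4% of their 31-base words with other genes (70.7% with Cdip1). According to the paper, aortic EC RNA was taken by flushing the aortic lumen with TRI Reagent. Libraries labelled aortic EC held all 7 endothelial markers (summed level 2798 to 4074 CPM in EC WT) but also adipocyte markers (summed level 4000 to 6554 CPM in EC WT and 4188 to 5118 CPM in EC KO). In EC WT, smooth muscle markers were at 3163 to 6126 CPM, fibroblast markers at 1377 to 2660 CPM and red blood cell markers at 1524 to 2373 CPM. EC KO 2 and EC KO 3 had 27.2 and 25 estimated counts of the Y-linked gene Ddx3y, against 1223 to 2440 in the other EC libraries and the heart KO libraries. Mitochondrially encoded genes took 37.6% to 44.3% of counts in heart WT and 22.6% to 27.2% in heart KO, while EC WT (19.4% to 30.7%) and EC KO (24.1% to 30.9%) overlapped.

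Levels between genes were compared in TPM, a unit corrected for transcript length that sums to the same total in every library. In EC WT, Hspa5, the major ER chaperone, was the highest at 149 ± 2.90 TPM (SD, n = 3), followed by Atf4 at 100.4 ± 9.65. Atf5 (67.0 ± 9.57), Herpud1 (61.5 ± 14.2) and Xbp1 (53.0 ± 4.85) formed a group whose neighbours overlapped, as did Ddit3 (34.1 ± 1.36) and Asns (31.5 ± 10.5). Trib3 was lower at 6.94 ± 0.611 TPM, Chac1 at 0.620 ± 0.161 and Fgf21 at 0.129 ± 0.188. The order in heart WT differed, with Herpud1 next after Hspa5: Hspa5 at 316 ± 67.2 TPM (SD, n = 4), Herpud1 at 73.6 ± 8.52, Atf4 at 22.95 ± 3.65 and Xbp1 at 18.8 ± 1.37. Ddit3 (9.47 ± 2.70) and Atf5 (9.33 ± 1.22) overlapped, as did Asns (1.46 ± 0.365) and Chac1 (1.28 ± 0.133), and Trib3 was at 0.613 ± 0.172.

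**Figure D1:**
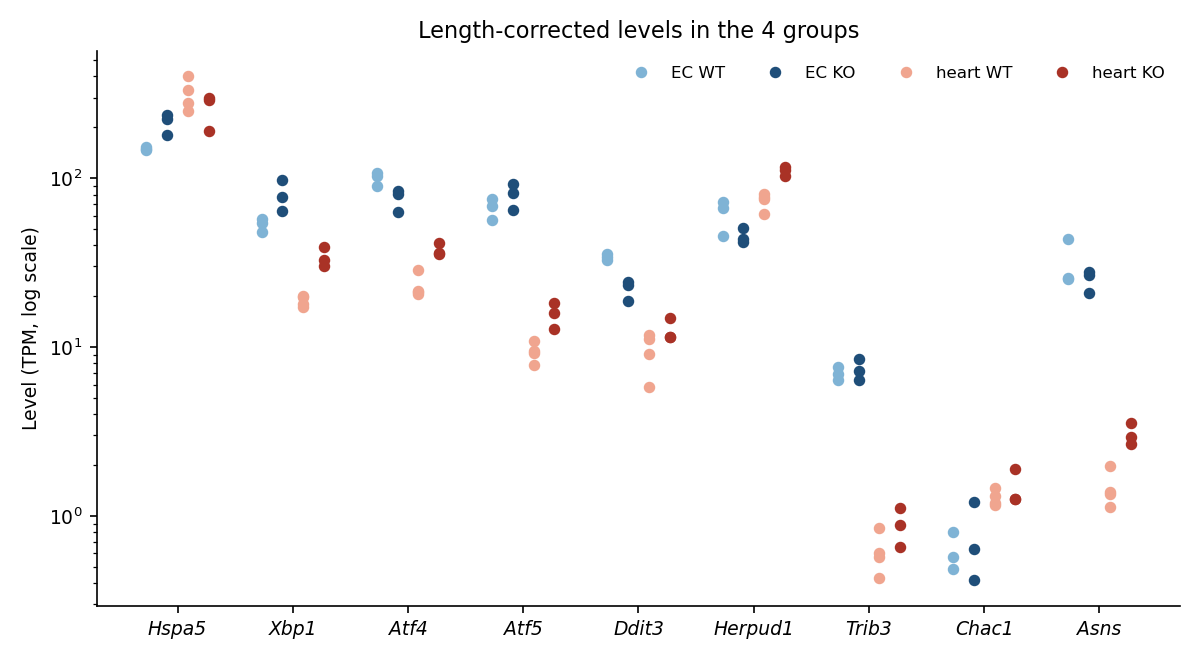
Level of 9 of the genes in TPM (log axis) in each of the 13 libraries, coloured by group. Points are single libraries. Fgf21 is left out because it was at 0 in all hearts. Asns, Trib3 and Atf5 sit far higher in the EC groups than in the heart groups, and in the wild type groups Hspa5 and Chac1 sit lower in ECs.

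Between the tissues of Hmox2+/+ mice, all 9 tested genes differed. In this and the later tests a gene passed at an adjusted p of at most 0.05 in edgeR's quasi-likelihood test, corrected over all genes tested. Hspa5 (log2 difference heart minus EC 2.02), Chac1 (2.03) and Herpud1 (1.29) were higher in heart tissue. Asns (-3.45), Trib3 (-2.65), Atf5 (-1.90), Atf4 (-1.17), Ddit3 (-0.99) and Xbp1 (-0.51) were lower. The counts of 3 higher and 6 lower stand beside 32.1% of all 15938 genes higher and 33.7% lower. On the TPM scale the median log2 ratio of all genes between these groups was -1.03, so that differences read from TPM lie about that much lower. Hspa5 was then at 1.08 and Chac1 at 1.05, and Herpud1 at 0.26 with overlapping groups (45.6 to 72.6 TPM in EC WT and 61.1 to 80.1 TPM in heart WT). RNA of the tissues was extracted with different kits, so tissue and kit cannot be told apart.

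In aortic ECs, loss of Hmox2 went with more Xbp1 and less Ddit3 mRNA, and the other 7 tested genes did not pass. That is 1 gene higher, where 10% of all 15301 genes tested were higher, and 1 gene lower, where 8.06% were lower. No gene of the list reached the additional criterion of a 2-fold change, which 9.28% of all genes met. The median log2 fold change of the 9 tested genes was 0.10, against -0.02 over all genes.

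Xbp1, the transcription factor of the IRE1 branch (chr11:5470606-5483027, GRCm39), was at 102, 88.5 and 89.4 CPM (estimated counts scaled to a common library size with the TMM factors of the tissue) in EC WT 1 to 3. It was at 165, 125 and 128 CPM in EC KO 1 to 3. All 3 EC KO libraries lay above all 3 EC WT libraries, and EC KO 1 was the highest. The difference passed, with a log2 fold change of 0.58 and an SE of 0.143 (adjusted p = 0.0331).

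Ddit3 encodes CHOP, a transcription factor made downstream of ATF4 that promotes cell death under lasting stress. Its level was 27.95, 19.95 and 20.1 CPM in EC WT 1 to 3 and 14.4, 13.7 and 15.4 CPM in EC KO 1 to 3. The groups did not overlap, and EC WT 1 stood above the other wild type libraries. On the log2 scale the change was -0.64 with an SE of 0.160 (adjusted p = 0.0330).

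Atf4, which drives the shared transcriptional program of the integrated stress response, had 159, 141 and 142 CPM in EC WT against 113, 105 and 119 CPM in EC KO. The groups did not overlap, but the log2 fold change of -0.39 (SE 0.113) was just past the threshold with an adjusted p of 0.0509. Xbp1, Atf4 and Ddit3 were the genes of the list without overlap between EC groups, a property shared by 40.7% of all genes tested. With 3 libraries against 3, an exact permutation test of 1 gene cannot give a two-sided p below 0.1.

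Hspa5 encodes BiP, the chaperone that binds unfolded proteins and keeps the sensors inactive. Its EC WT libraries were at 366, 288 and 273 CPM and its EC KO libraries at 363, 508 and 472 CPM. EC KO 1 lay within the wild type range, while the other EC KO libraries lay above it. The log2 fold change was 0.54 (SE 0.187, adjusted p = 0.0851). In TPM the groups did not overlap, at 146 to 152 TPM in EC WT and 180 to 237 TPM in EC KO. Of the 31-base words in Hspa5 transcripts, 22.9% also occur in Rabepk, a gene on the opposite strand that overlaps it, so part of its counts cannot be assigned with certainty. Rabepk itself was at 11.2 to 19.1 CPM in the EC libraries.

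The remaining genes differed by less than the threshold in ECs. Asns, the enzyme that makes asparagine, was at 52.5, 69.2 and 39.5 CPM in EC WT and 45.3, 41.0 and 43.5 CPM in EC KO (log2 fold change -0.31, adjusted p = 0.285). Atf5, a transcription factor related to ATF4 that is also known from mitochondrial stress, had a log2 fold change of 0.30 (adjusted p = 0.306). EC KO 2 was its highest library at 163 CPM and EC KO 3 its second lowest at 96.0 CPM. Herpud1, an ER membrane protein that helps degrade misfolded proteins, was at -0.28 (adjusted p = 0.174). Trib3, a pseudokinase that restrains ATF4 and CHOP, was at 0.10 (adjusted p = 0.744), and Chac1, which breaks down glutathione, was at 0.31 (adjusted p = 0.662) with all EC libraries between 0.552 and 1.59 CPM.

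**Figure D2:**
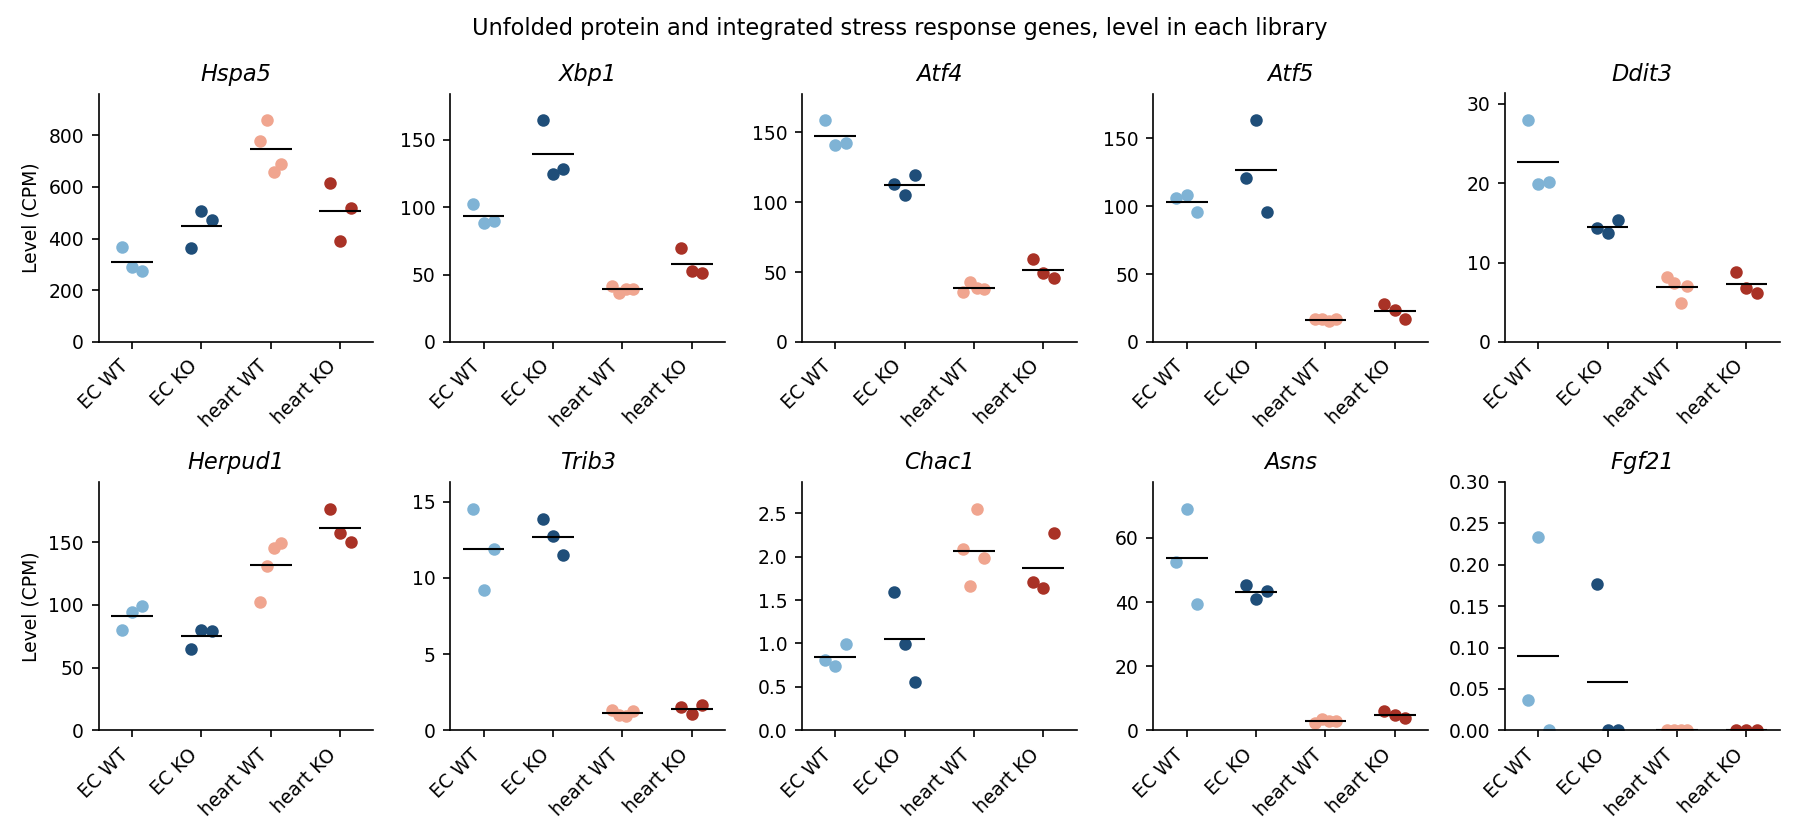
Level of each of the 10 genes in CPM (linear axes from 0, a separate scale for each gene) in the 4 groups. Points are libraries and black lines are group means, and each tissue was scaled by itself. Xbp1 is higher in Hmox2-/- libraries of both tissues (125 to 165 against 88.5 to 102 CPM in ECs), whereas Atf4 is lower in EC KO and higher in heart KO.

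The EC calls depended on the tool and on single libraries. DESeq2 also called Hspa5 higher (adjusted p = 0.0243) and Atf4 lower (adjusted p = 0.00601). Xbp1 no longer passed when any 1 of the 6 EC libraries was left out (adjusted p 0.0571 to 0.0898), and Ddit3 no longer passed without EC WT 1, EC KO 1, EC KO 2 or EC KO 3 (adjusted p 0.0693 to 0.109). Their log2 fold changes stayed between 0.44 and 0.65 and between -0.68 and -0.47 in these fits. Without EC KO 2 and EC KO 3, the libraries nearly free of Ddx3y counts, 1 Hmox2-/- library remained, and the values were 0.82 for Xbp1 (adjusted p = 0.185) and -0.65 for Ddit3 (adjusted p = 0.342). This fit assumes that the lone library varies like the wild type group.

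In heart tissue, Xbp1, Atf4, Atf5 and Asns rose in Hmox2-/- mice and Hspa5 fell, while Ddit3, Herpud1, Trib3 and Chac1 did not pass. The 4 genes higher stand beside 17.2% of all 13816 genes tested, and the 1 gene lower beside 16.2%. None of the list met the 2-fold criterion, which 6.71% of all genes did. The median log2 fold change of the 9 tested genes was 0.34, against -0.01 over all genes.

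Xbp1 was at 41.8, 36.6, 39.3 and 38.9 CPM in heart WT 1 to 4 and at 70.0, 52.3 and 51.3 CPM in heart KO 1 to 3. All heart KO libraries lay above the wild type range, heart KO 1 most. The log2 fold change of 0.57 (SE 0.119, adjusted p = 0.00529) was close to that in ECs.

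Atf4 (chr15:80139372-80141745, GRCm39) was at 35.7, 43.1, 38.5 and 37.8 CPM in heart WT and at 59.5, 49.2 and 45.7 CPM in heart KO. Again no library of one genotype lay within the range of the other. On the log2 scale Atf4 changed by 0.40 with an SE of 0.112 (adjusted p = 0.0183). Atf5 was at 16.5, 17.2, 15.1 and 17.1 CPM in heart WT and 27.7, 23.2 and 17.0 CPM in heart KO, where heart KO 3 lay within the wild type range (log2 fold change 0.46, SE 0.151, adjusted p = 0.0365).

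Asns (chr6:7671667-7728461, GRCm39) was low in hearts, at 2.23, 3.53, 2.78 and 2.80 CPM in heart WT, where heart WT 1 rested on 15 counts. In heart KO it was at 6.05, 4.75 and 4.01 CPM. The groups did not overlap, and the log2 fold change of 0.76 (SE 0.201, adjusted p = 0.0145) was the highest of the list. Trib3, also an ATF4 target, was at 0.952 to 1.34 CPM in heart WT and 1.09 to 1.65 CPM in heart KO (log2 fold change 0.34, adjusted p = 0.365).

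Hspa5 (chr2:34661982-34668880, GRCm39) was at 776, 859, 658 and 688 CPM in heart WT and at 616, 389 and 519 CPM in heart KO. The highest heart KO library lay below the lowest heart WT library on this scale, and heart KO 2 was the lowest. The log2 fold change was -0.55 (SE 0.154, adjusted p = 0.0184). On the TPM scale the groups overlapped at 250 to 403 TPM in heart WT and 192 to 300 TPM in heart KO. The log2 TPM ratio of Hspa5 was -0.28, against a median of 0.32 over all genes. The overlap with Rabepk applies here too, and Rabepk was at 4.81 to 7.73 CPM in heart WT and 8.08 to 10.7 CPM in heart KO.

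Herpud1 was at 102, 131, 146 and 149 CPM in heart WT and 177, 157 and 150 CPM in heart KO. The groups did not overlap, but heart WT 4 and heart KO 3 were nearly equal, and the log2 fold change of 0.29 did not pass (SE 0.130, adjusted p = 0.110). Ddit3 was at 4.91 to 8.18 CPM in heart WT and 6.19 to 8.81 CPM in heart KO (log2 fold change 0.10, adjusted p = 0.712), and Chac1 had a log2 fold change of -0.14 (adjusted p = 0.670). Hspa5, Xbp1, Atf4, Herpud1 and Asns had groups without overlap, which 40.4% of all genes tested had. For Hspa5, Xbp1, Atf4 and Asns the exact two-sided permutation p was 0.0286, the smallest that 4 libraries against 3 can give.

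Fgf21, a hormone that stressed tissues secrete, had 0 counts in all 7 hearts. At the depth of these libraries a level of up to 0.0881 to 0.446 CPM is allowed by a count of 0 (3 counts, counting error only). In ECs it had 1, 7 and 0 counts in EC WT and 5, 0 and 0 counts in EC KO, too few for the test.

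In heart tissue the call for Xbp1 held without any 1 library. Atf4 no longer passed without heart WT 1 (adjusted p = 0.0516) or heart WT 4 (0.0524), Hspa5 without heart WT 2 (0.0557) or heart KO 2 (0.0789), and Asns without heart KO 1 (0.0538). Atf5 passed without heart KO 3 but without no other library (0.0577 to 0.138), and did not pass with length-scaled TPM counts (0.0601).

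**Figure D3:**
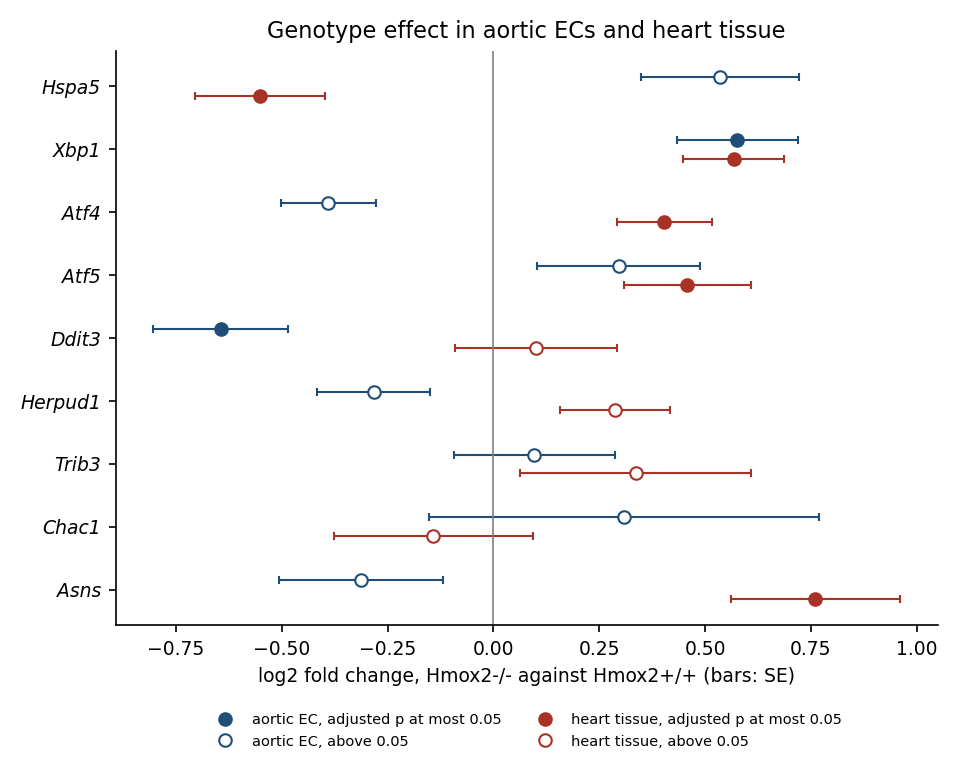
Log2 fold change of each tested gene, Hmox2-/- against Hmox2+/+, in aortic ECs and heart tissue, with bars of 1 SE. Filled points passed at an adjusted p of at most 0.05. Xbp1 is at 0.58 and 0.57 in the 2 tissues, and Hspa5, Atf4, Asns, Ddit3, Herpud1 and Chac1 have opposite signs in them.

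The design allows a direct test of whether the genotype effect differed between the tissues, fitted as a tissue by genotype interaction over all 13 libraries. Of the list, 5 genes differed: Atf4, Ddit3, Herpud1 and Asns had a higher effect in heart tissue, against 16.2% of all genes tested, and Hspa5 a lower effect, against 12.6%. The effect of Hspa5 in heart tissue minus that in ECs was -1.05 (SE 0.266, adjusted p = 0.0104), and that of Asns was 1.11 (SE 0.278, adjusted p = 0.00992). Atf4 differed by 0.83 (SE 0.157, adjusted p = 0.00215). For these 3 genes the signs were opposite in the tissues, as they were for Ddit3, Herpud1 and Chac1. In ECs none of Hspa5, Asns and Atf4 passed by itself.

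Ddit3 differed by 0.78 (SE 0.265, adjusted p = 0.0401) and Herpud1 by 0.61 (SE 0.202, adjusted p = 0.0356). Both no longer passed under upper-quartile normalization (adjusted p 0.0690 and 0.0760). Xbp1 differed by 0.03 (SE 0.188, adjusted p = 0.932), which does not show equal effects. The other ATF4 targets, Chac1 (-0.41, adjusted p = 0.563) and Trib3 (0.28, adjusted p = 0.516), and Atf5 (0.20, adjusted p = 0.588) did not pass.

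The estimated shares of the Hspa5 transcripts differed between the genotypes too. Hspa5-202, of 2613 bases, took 89.1% to 95.6% of the counts in every library. The longer Hspa5-201, of 3672 bases, took 2.62% to 4.54% of the gene's counts in EC WT and 8.04% to 9.27% in EC KO. In hearts its share was 6.50% to 8.49% in WT and 3.58% to 5.58% in KO. The ranges did not overlap in either tissue and were ordered in opposite ways. This transcript was singled out after its values were seen, and no test was made.

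After the 10 genes themselves, 7 lists of related genes were followed in both tissues. The first list held the ER chaperones and folding enzymes, 16 genes of the ER lumen and membrane that work with BiP. In ECs 9 of the 16 rose and none fell, all 16 had a log2 fold change above 0, and the median was 0.48 against -0.02 over all genes, of which 10% rose and 8.06% fell. In heart tissue none of them rose by edgeR or DESeq2, nor at an unadjusted p under 0.05, and 4 fell, with a median of -0.14 against -0.01. The background there was 17.2% of all genes higher and 16.2% lower. In the interaction test 7 of 16 had a lower effect in heart tissue, none a higher one, and the median difference was -0.55 against 0.03 over all genes, 12.6% of which had a lower effect.

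On the TPM scale the 16 genes were again all above 0 in ECs (median log2 ratio 0.38, against -0.09 over all genes). In heart tissue the sign of this list depended on the scale. There the median of all genes was 0.32 in TPM, 11 of the 16 ER genes were above 0, and 4 of the 16 were above the median of all genes. The 4 genes that fell by the test, Hsp90b1, Pdia6, Canx and Pdia4, had overlapping genotypes in TPM, and Canx had a log2 TPM ratio of 0.21.

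Hsp90b1, the ER form of HSP90, was at 407, 302 and 373 CPM in EC WT and 580, 578 and 519 CPM in EC KO. In hearts it was at 403, 492, 338 and 410 CPM in WT and 298, 228 and 278 CPM in KO. In both tissues the genotypes did not overlap in CPM, but their order was reversed. Its log2 fold changes were 0.63 in ECs (adjusted p = 0.0365), -0.62 in heart tissue (adjusted p = 0.00706) and -1.21 for the difference (adjusted p = 0.00213).

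Pdia6, a protein disulfide isomerase, followed the same course, at 145, 124 and 132 CPM in EC WT and 197, 199 and 185 CPM in EC KO. Its heart levels were 83.6, 103, 75.1 and 86.3 CPM in WT and 69.8, 53.8 and 58.5 CPM in KO. No library of one genotype lay in the range of the other in either tissue in CPM (log2 fold changes 0.54 and -0.52, adjusted p 0.0217 and 0.0106). Canx, the lectin chaperone calnexin, had log2 fold changes of 0.45 in ECs and -0.38 in heart tissue (adjusted p 0.0441 and 0.00846), but its EC groups overlapped in TPM (83.1 to 95.9 in WT and 84.9 to 99.2 in KO, log2 ratio 0.05). Pdia4 had log2 fold changes of 0.51 and -0.40 (adjusted p 0.0284 and 0.0205).

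Dnajb9, a BiP cochaperone and target of XBP1, had the highest value of the list in ECs. Its levels were 32.5, 43.8 and 33.0 CPM in EC WT and 61.9, 60.2 and 72.5 CPM in EC KO, again without overlap (log2 fold change 0.83, adjusted p = 0.0135). In heart tissue it was at -0.17 (adjusted p = 0.327). Sdf2l1 (0.81), Pdia3 (0.65), Manf (0.59) and Dnajc3 (0.42) were the others that rose in ECs, whereas Hyou1 had the lowest value at 0.13 (adjusted p = 0.623).

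ERSE, the element printed above for Hspa5, was found in the promoters of 7 of the 14 genes of this list that had one: Hsp90b1, Calr, Canx, Pdia6, Dnajc3, Creld2 and Ero1b. Neither CARE nor UPRE was found in any of the 14.

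**Figure D4:**
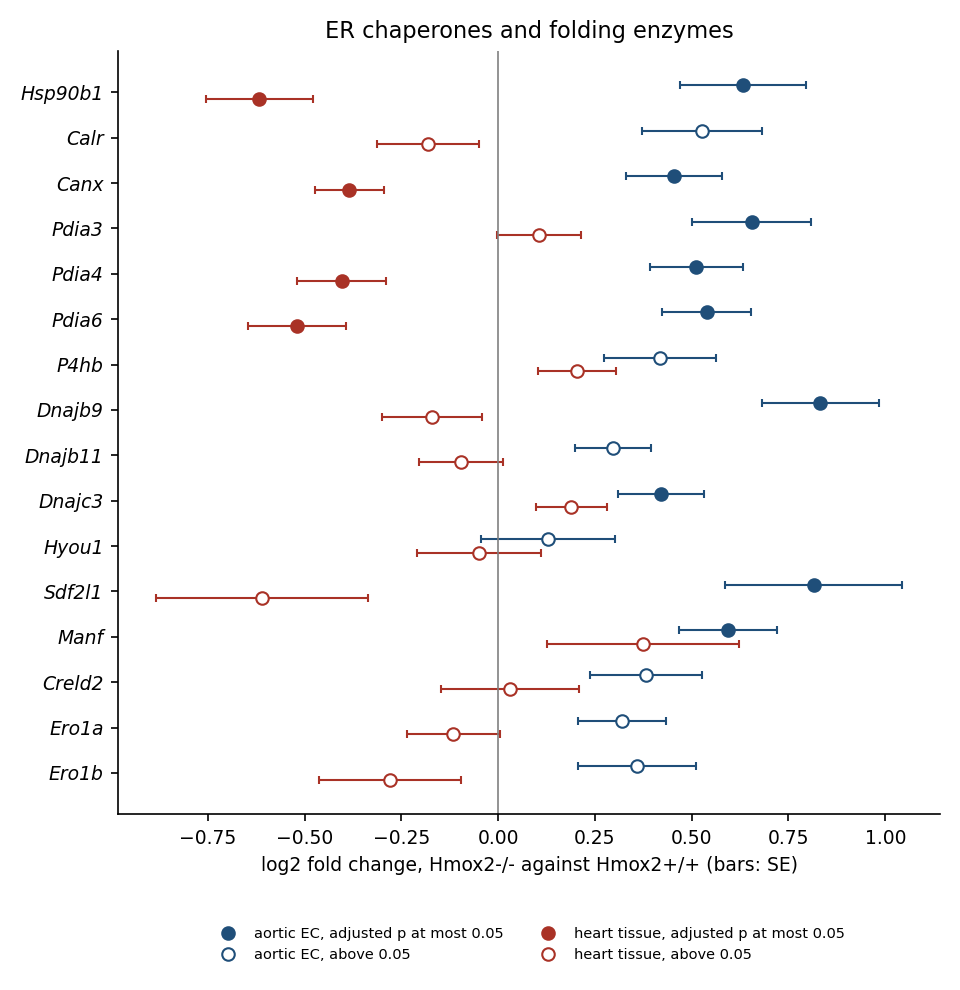
Log2 fold change, Hmox2-/- against Hmox2+/+, with bars of 1 SE, of 16 ER chaperones and folding enzymes in aortic ECs and heart tissue. Filled points passed at an adjusted p of at most 0.05. All 16 EC points lie above 0, and 11 of 16 heart points lie below it. In TPM 11 of the 16 heart ratios are above 0, but 4 of 16 are above the median of all genes, 0.32.

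The EC count of this list depended on the libraries. It was 0 to 8 when 1 library was left out (0 without EC KO 3, 1 without EC WT 2 or EC KO 2, and 2 without EC WT 1 or EC KO 1), and 0 without both EC KO libraries that lacked Ddx3y counts. The median stayed between 0.43 and 0.54 in the fits without 1 library, and in all of them the 16 genes stayed above 0. Without both Ddx3y-poor libraries 15 of 16 were above 0 and the median was 0.40. In heart tissue the count lower was 2 without heart KO 2 and 3 to 5 without any other library, and without heart KO 2 there was also 1 gene higher.

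Cell type markers moved in the same EC comparison. Their summed levels in EC WT and EC KO were 1377 to 2660 and 3811 to 4485 CPM for fibroblasts (3 of 4 markers higher) and 333 to 438 and 598 to 979 CPM for macrophages (3 of 5 higher). For endothelial cells they were 2798 to 4074 and 4942 to 6015 CPM (3 of 7 higher, 1 lower). Smooth muscle markers were at 3163 to 6126 and 1011 to 3473 CPM (2 of 5 lower), and cardiomyocyte markers at 117 to 422 and 5.77 to 8.68 CPM (6 of 7 lower). In heart tissue, macrophage markers were at 98.7 to 146 CPM in WT and 175 to 299 CPM in KO (3 of 5 higher). Red blood cell markers were at 121 to 222 and 592 to 985 CPM (3 of 3 higher). Smooth muscle markers were at 1352 to 1590 and 1765 to 2326 CPM (3 of 5 higher). Endothelial markers were at 421 to 502 and 543 to 578 CPM (2 of 7 higher), and fibroblast markers at 350 to 411 and 399 to 492 CPM (1 of 4 lower). Cardiomyocyte markers were at 42500 to 47660 and 44400 to 49470 CPM (3 of 7 higher). At an unadjusted p under 0.05 edgeR had 2 cardiomyocyte markers lower. Of all genes tested, 10% were higher and 8.06% lower in ECs, and 17.2% and 16.2% in heart tissue. The part of cell composition in the values of the stress genes was not tested, and in bulk RNA a change in the number of cells of a type and a change of RNA per cell cannot be told apart.

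Among the 17 genes of the sensors and of the control of eIF2, none passed in ECs, 6 rose and 2 fell in heart tissue, and the medians were -0.10 and 0.22. Over all genes 10% were higher and 8.06% lower in ECs, and 17.2% higher and 16.2% lower in heart tissue. At an unadjusted p under 0.05 edgeR had 2 of them lower in ECs and none higher, and DESeq2 called 1 lower. The 3 ER stress sensors did not pass in either tissue. Ern1, which encodes IRE1, had log2 fold changes of 0.81 (SE 0.350, adjusted p = 0.142) and 0.11, with EC KO 1 to 3 spread over 31.7, 54.5 and 96.4 CPM. Eif2ak3, which encodes PERK, had 0.13 and -0.15, and Atf6 had -0.05 and 0.09.

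Of the other eIF2 kinases, Eif2ak1, which encodes the heme-regulated kinase HRI, rose in heart tissue. It was at 26.5, 23.9, 23.5 and 22.8 CPM in heart WT and 29.9, 34.97 and 33.5 CPM in heart KO. The groups did not overlap (log2 fold change 0.45, adjusted p = 0.00707), and in ECs the value was -0.18 (adjusted p = 0.409). The effects differed by 0.67 (adjusted p = 0.0103). Its transcripts share 24.4% of their 31-base words with Aimp2, so its counts are less certain.

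Eif2ak2, which encodes the double-stranded RNA kinase PKR, fell in heart tissue, from 13.8, 21.0, 19.96 and 21.7 CPM to 7.93, 11.8 and 12.8 CPM (log2 fold change -0.84, SE 0.184, adjusted p = 0.00649). The groups did not overlap in CPM, but they did in TPM (3.40 to 5.27 in WT and 2.39 to 3.77 in KO). Eif2ak4, which encodes GCN2, did not pass (log2 fold changes -0.29 in ECs and -0.11 in heart tissue). Eif2b2 (0.54), Eif2b4 (0.46) and Eif2b5 (0.40), subunits of the exchange factor that phosphorylated eIF2 blocks, rose in heart tissue. So did Dele1 (0.30) and Oma1 (0.34), which relay mitochondrial stress to HRI, and Ppp1r15b, a subunit of the phosphatase that acts on eIF2, fell (-0.44, adjusted p = 0.00511). In TPM the heart groups of Ppp1r15b overlapped (4.28 to 5.28 in WT and 4.02 to 4.63 in KO).

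The regulators known as targets of ATF4 and CHOP mostly had negative log2 fold changes, with medians of -0.52 in ECs and -0.23 in heart tissue. In TPM the EC median was -0.50, but in heart tissue the sign depended on the scale. The heart median in TPM was 0.10, against 0.32 over all genes. On that scale 10 of the 13 genes were above 0 and 5 were above the median of all genes. In ECs 3 of 13 fell and none rose, and in heart tissue 3 fell and 1, Ddit4 (0.69, adjusted p = 0.00750), rose. Over all genes 8.06% fell and 10% rose in ECs, and 16.2% fell and 17.2% rose in heart tissue. Vldlr, a lipoprotein receptor, fell in both tissues (log2 fold changes -1.15 and -0.80, adjusted p 0.00704 and 0.00235), as did Tnfrsf10b, a death receptor (-1.06 and -0.998, adjusted p 0.0200 and 0.00348). In TPM the heart groups of Vldlr overlapped, at 52.5 to 61.4 in WT and 34.9 to 57.4 in KO. Cebpb, the binding partner of ATF4, fell from 102, 52.1 and 56.2 CPM to 38.8, 23.7 and 21.1 CPM in ECs (-1.33, adjusted p = 0.0305), and had 0.36 in heart tissue (adjusted p = 0.431). Bcl2l11, which encodes the death factor BIM, fell in heart tissue (-0.99, adjusted p = 0.00294) and had 0.16 in ECs, with a difference between tissues of -1.11 (adjusted p = 0.00927).

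Of 16 genes for amino acid synthesis and transport, which ATF4 is known to drive, 3 rose and 1 fell in ECs, where 10% and 8.06% of all genes did. Of the 15 tested in heart tissue 1 rose and 1 fell, shares below the 17.2% and 16.2% of all genes. Slc3a2, a subunit of amino acid exchangers, rose from 98.3, 89.1 and 99.8 CPM to 147, 138 and 132 CPM (log2 fold change 0.54, adjusted p = 0.0185). Aldh18a1, for proline synthesis, rose too (0.63, adjusted p = 0.0233), and the glutamine transporter Slc1a5 fell (-0.67, adjusted p = 0.0482). Phgdh, which starts serine synthesis, rose in ECs (1.19, adjusted p = 0.0268) and in heart tissue (1.83, adjusted p = 0.00985), where it was at 0.152 to 0.554 CPM in WT and 0.911 to 1.42 CPM in KO. It shares 55.5% of its words with other genes. In heart tissue the arginine transporter Slc7a1 fell from 91.7 to 102 CPM in WT to 41.6 to 53.4 CPM in KO (-1.06, adjusted p = 7.17e-05).

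Among the 12 cytosolic aminoacyl-tRNA synthetases none passed in ECs by edgeR or DESeq2, with 1 lower at an unadjusted p under 0.05. Over all genes 10% were higher and 8.06% lower in ECs. Of the 11 tested in heart tissue 3 rose and 1 fell, beside 17.2% and 16.2% of all genes. The medians were -0.01, which was 0.06 under upper-quartile normalization, and 0.13. Gars1 (0.41, adjusted p = 0.00734), Sars1 (0.34, adjusted p = 0.0246) and Wars1 (0.29) rose in hearts and Lars1 fell (-0.37, adjusted p = 0.00969), although its mean level in TPM was 13.98 in KO and 13.95 in WT. Of 15 genes of ER-associated degradation, none passed in ECs by either tool, beside the same 10% and 8.06% of all genes. At an unadjusted p under 0.05, 2 were higher and 2 lower. In heart tissue, where 14 were tested, 2 rose and 2 fell, beside 17.2% and 16.2% of all genes. Selenos rose (0.36, adjusted p = 0.0224), while Sel1l (-0.49, adjusted p = 0.0104) and Edem3 (-0.52, adjusted p = 0.0126), which act on misfolded glycoproteins, fell. In TPM the heart groups of Sel1l and Edem3 overlapped.

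The mitochondrial unfolded protein response had a median of -0.41 in ECs, where Lonp1 (-0.75, adjusted p = 0.0253) and Clpx (-0.74, adjusted p = 0.0354), a matrix protease and a protease subunit, fell and Yme1l1 (0.43, adjusted p = 0.0265) rose, beside 8.06% of all genes lower and 10% higher. In heart tissue 4 of the 10 genes rose and 2 fell, with a median of 0.08, beside 17.2% and 16.2% of all genes. Clpp, the catalytic subunit that pairs with Clpx, was at 32.3, 32.7, 32.1 and 32.4 CPM in heart WT and 68.6, 49.8 and 39.7 CPM in heart KO (0.70, adjusted p = 0.00629). Clpx, in contrast, fell in heart tissue as in ECs (-0.50, adjusted p = 0.00479), so that the subunits of this protease had opposite signs in hearts. In TPM the heart groups of Clpx overlapped (32.9 to 37.4 in WT and 28.9 to 35 in KO). Hspe1, a mitochondrial cochaperone, rose in hearts (0.53, adjusted p = 0.0110) and shares 30.5% of its words with other genes.

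**Figure D5:**
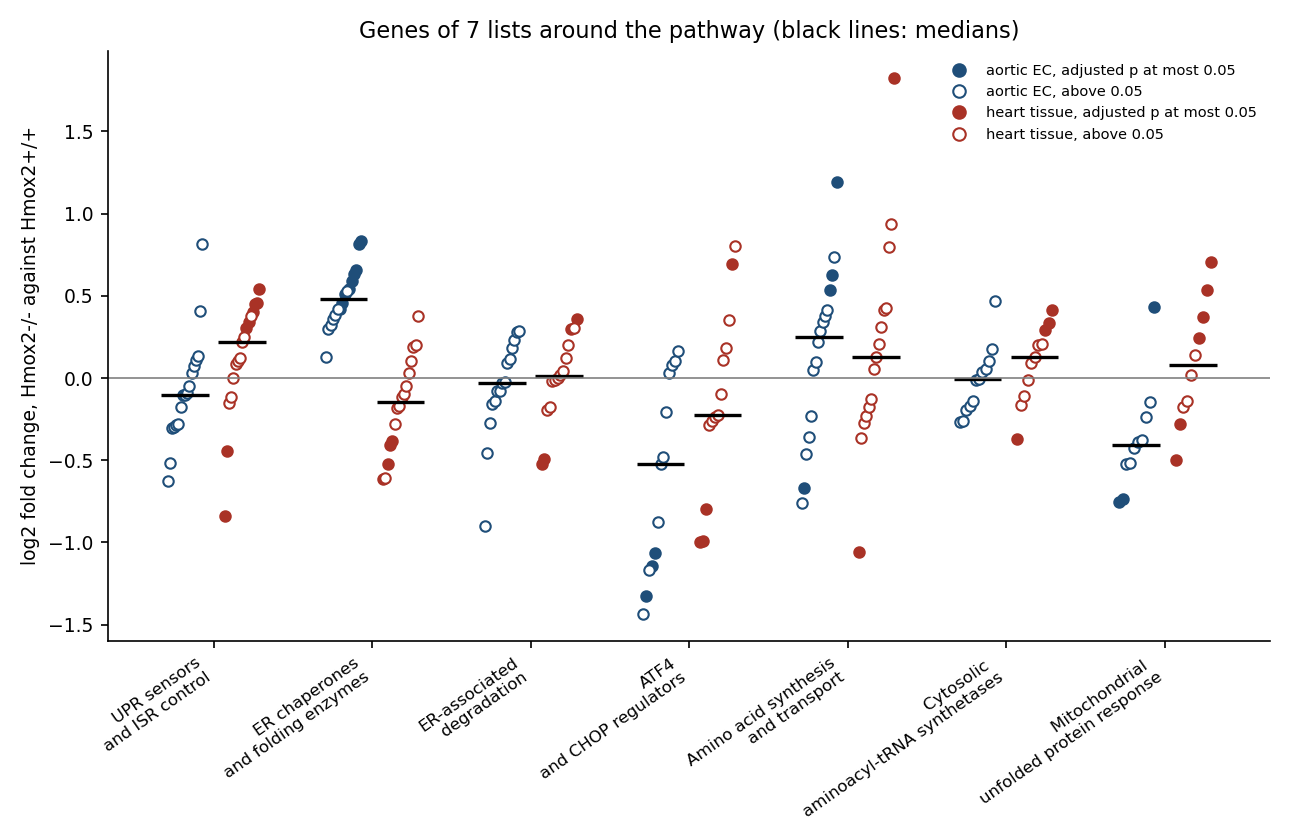
Log2 fold change, Hmox2-/- against Hmox2+/+, of every tested gene in 7 lists around the pathway, in aortic ECs and heart tissue. Filled points passed at an adjusted p of at most 0.05 and black lines are medians. The ER chaperones have the highest EC median, 0.48, and a heart median of -0.14 (0.19 in TPM, where all genes have 0.32). The mitochondrial list has medians of -0.41 and 0.08.

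Within groups, over the 13 libraries with group means removed, Atf4 deviated together with Asns (r = 0.60) and with Ddit3 (r = 0.54), and Hspa5 with Ddit3 (r = 0.60). Herpud1 and Trib3 deviated in opposite directions (r = -0.46). With its other targets Atf4 had r = 0.05 (Trib3), r = -0.09 (Fgf21) and r = -0.40 (Chac1). The value for Fgf21 rests on few counts, 0 in every heart and at most 7 in any EC library. These values were picked from 45 pairs, describe 13 libraries that share depth and tissue composition within groups, and were not tested.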

How the data were processed

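RNA of aortic ECs and whole hearts was sequenced after oligo-dT selection. The authors quantified each library with kallisto (0.44.0, per the labels). The deposited estimated counts and the deposited TPM are per transcript and not normalized between libraries, and the effective length deposited beside them was used only for length-scaled counts. The authors' methods name GENCODE M32 on GRCm39, and the labels also list other builds. Here 118489 transcripts were assigned by stable ID to genes of GENCODE M39 (97.2% matched), and 0.755% to 1.01% of counts had no match. Counts were summed per gene, rounded, filtered (filterByExpr, minimum count 10), TMM normalized and tested with edgeR's quasi-likelihood test (4.0.16, R 4.3.3) with Benjamini-Hochberg adjustment over all genes. A gene passed at an adjusted p of at most 0.05. The interaction and tissue tests used all 13 libraries in 4 groups. CPM values carry the TMM factors of the fit of their own tissue and were not compared between tissues. TPM ratios between group means were set beside the median over all genes with a mean of at least 10 counts.

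The 10 genes, the 7 related lists and the marker lists were chosen with earlier results of these data known. Named were the 10 genes, the sensors and kinases, and in each list and tissue up to 3 passing genes with the smallest p. Further genes of the lists were named after their values were seen. Replicates differed by more than sampling noise. The labels do not tie libraries to litters or dates. The p-values set each difference against the spread between these libraries, moderated over all genes. The paper gives 3 hearts per genotype, whereas all 4 heart WT libraries of the series were used here. Biological variation between replicates (edgeR's common coefficient) was 0.241 for the EC fit and 0.149 for the heart fit. Of 200 genes simulated with a log2 fold change of 1, the test called 148 in ECs (15034 genes), 197 in heart tissue (13626) and 108 for the interaction (15315). Genes at low levels were not among the 200, and the simulated spread followed the trend over all genes. Within tissues no gene of the list passed with a 2-fold change, so these counts do not give the power for the list. Alternatives were DESeq2 (1.42.0), upper-quartile normalization, no filter, length-scaled TPM, mitochondrial genes left out, a replicate block, all libraries in 1 fit, the 2-fold criterion and libraries left out. Ddit3 has a second annotated ID with no counts, which was not used. Figures were drawn with matplotlib 3.10.9.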

Additional observations from a re-analysis of the deposited data

Results flagged for a closer look

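The tissue by genotype interaction, a test of the difference itself, called 5 of the 10 genes, 4 with a higher and 1 with a lower effect in heart tissue. Over all 15938 genes tested, 16.2% had a higher and 12.6% a lower effect there. The log2 fold change in heart tissue minus that in ECs was -1.05 for Hspa5, 0.83 for Atf4, 0.78 for Ddit3, 0.61 for Herpud1 and 1.11 for Asns. For Hspa5, Atf4 and Asns the difference passed in every alternative that kept the same threshold, while Ddit3 and Herpud1 lost it in some. Of the 5, Hspa5 and Asns also met the 2-fold criterion, whose share over all genes was not counted for the interaction. On the CPM scale no heart WT library stood apart from the other 3 for any of the 10 genes. On the TPM scale heart WT 2 stood apart for Atf4, at 28.4 TPM against 20.7 to 21.4 TPM in the others, and chance gives such a gap in about 1 of 20 groups. Groups of 3 were not examined in this way. The EC KO libraries with few Ddx3y counts enter each of these differences, and their joint part in them was not tested.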

How the results depend on the processing

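No value of the 10 genes changed sign past the threshold in any alternative. The number of the 10 genes that passed in ECs was 2, and became 4 with DESeq2, 3 with all 13 libraries in 1 fit, 1 with length-scaled TPM counts, 0 with the 2-fold criterion, 0 without the EC KO libraries that lack Ddx3y counts, and 0 to 2 without 1 library. In heart tissue it was 5, and became 4 with length-scaled TPM counts or all 13 libraries in 1 fit, 0 with the 2-fold criterion and 3 to 5 without 1 library. For the interaction it was 5, and became 4 with length-scaled TPM counts, 3 with upper-quartile normalization and 3 to 5 without 1 library. All 9 genes passed between tissues in every alternative with the same threshold, and 7 met the 2-fold criterion. The ER chaperones higher in ECs numbered 9, and 12 with DESeq2, 11 with upper-quartile normalization, 8 with length-scaled TPM counts, 7 with no filter, 0 with the 2-fold criterion, 0 without the libraries that lack Ddx3y counts, and 0 to 8 without 1 library. Those lower in heart tissue numbered 4, and 0 with the 2-fold criterion and 2 to 5 without 1 library. The alternatives on the ER chaperones and the TPM ratios were chosen after the count was seen. Over all genes, 1532 of 15301 were higher in ECs. With DESeq2 they numbered 2090, with upper-quartile normalization 1864 and with the 2-fold criterion 825. Length-scaled TPM counts gave 1358 of 15312, and no filter gave 1634 of 22983. In heart tissue 2238 of 13816 were lower.

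With the replicate number as a block, 1 of the 10 genes, Xbp1, passed in heart tissue (Hspa5, Atf4, Atf5 and Asns had adjusted p between 0.0564 and 0.0841), 2 passed in ECs, 5 for the interaction, and 6 ER chaperones were higher in ECs. Over all genes the block changed the heart calls from 4618 to 2899. Same-numbered WT and KO libraries had deviation correlations of 0.172, 0.0361 and 0.0747 in ECs and -0.0172, 0.0337 and 0.0181 in heart tissue. Differently numbered ones ranged from -0.211 to 0.146 in ECs and from -0.0696 to 0.0396 in heart tissue. Between same-numbered EC and heart libraries the correlations were 0.102, 0.0125 and 0.0458 in WT and 0.0732, -0.0482 and 0.119 in KO. Differently numbered ones ranged from -0.0982 to 0.0578 in WT and from -0.126 to 0.0452 in KO. Deviations from the mean of so few libraries depend on each other, so these values cannot decide whether the numbers pair the samples.

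Over all genes, EC calls numbered 2766, 4033 with DESeq2, 49 without both Ddx3y-poor libraries and 638 without EC KO 3. Upper-quartile normalization moved the share of higher calls from 56.1% to 46.0% for the interaction and from 55.4% to 64.8% in ECs. A fit of all 13 libraries moved it from 55.4% to 44.6% in ECs. Upper-quartile normalization also moved the median of all genes from 0.03 to -0.07 for the interaction and from -0.05 to -0.19 between tissues. In ECs it moved this median from -0.02 to 0.05. The depth was lowest in heart WT 1.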
